A study of Drosophila melanogaster with 12 samples.

Results

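The genes described here were the molecular chaperones of the fly other than the inducible Hsp70 copies, 40 of the 17807 gene symbols in the count table. They were all symbols beginning with Hsc70, with CCT and a digit, or with DnaJ, Hsp60, Hsp67B or Hsp10, together with a list of single genes from *Hsp22* to *lncRNA:Hsromega*. By role they were 7 small heat-shock proteins, 7 constitutive or inducible Hsp70 relatives with their Hsp110 partner, 5 J-domain proteins, 3 Hsp90 proteins, 12 chaperonin genes, 4 cochaperones and regulators, and 2 others. Not all of them fold proteins: *Hsf* encodes the heat-shock transcription factor, *CG5045* the mitochondrial protease subunit ClpP, and *lncRNA:Hsromega* no protein at all. The listed name *Hop* was found under its newer symbol *Stip1* and the listed name *Hsp110* under *Hsc70Cb*. No symbol in the table began with Hsp10.

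RNA from whole adult *Drosophila melanogaster* was sequenced in 12 libraries, 3 biological replicates of 20 flies in each of 4 groups. *brummer* (*bmm*), the main triglyceride lipase of the fly, was overexpressed in females and males by the ubiquitous *daughterless* driver (*da-GAL4>UAS-bmm*). Controls of each sex carried the driver alone (*da-GAL4/+*), so *da-GAL4* was present in all 4 groups. Flies with the *UAS-bmm* insertion and no driver were not analysed here, and an effect of the insertion cannot be told apart from that of *bmm*. The lines had been backcrossed to *w1118*, the flies mated for 48 h before the sexes were separated, and all were kept at 25 °C on the same food. Their age at freezing is not given in the sources used here. The sequencing served to survey how *bmm* overexpression changes transcription.

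Chaperones bind proteins that are not folded and either hold them or help them fold. Small heat-shock proteins hold misfolded proteins without using ATP, J-domain proteins hand clients to Hsp70 relatives, Hsp90 finishes the folding of many signalling proteins, and chaperonins enclose a client in a ring. The chaperonin CCT folds actin and tubulin in the cytosol, whereas Hsp60 works in the mitochondrial matrix. In flies the ovary is a rich source of several chaperone transcripts, including those of *Hsp83*, *Hsp26* and *Hsp27*, which nurse cells load into the egg.

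Total counts per library ran from 20068187 to 34799635. A floor of 3 counts, used as the detection limit, was worth 0.0862 to 0.1495 CPM (counts scaled to the library total). The labels were checked by *bmm* itself, which lay between 4515 and 5007 CPM in females overexpressing it against 128.8 to 145.3 CPM in their controls. In males *bmm* lay between 10300 and 11420 CPM against 482.4, 229.8 and 185.2 CPM in control replicates 1, 2 and 3. The male controls also differed in RNA of egg genes. As a share of the level in *bmm* overexpression females, the level of 21 egg genes (yolk proteins, eggshell) had a median of 5.63%, 1.28% and 0.634% in male control replicates 1, 2 and 3, and between 0.135% and 0.200% in the *bmm* overexpression males. The male values of *Hsp26*, *Hsp27*, *Hsp23* and CCT are therefore also given without male control replicate 1 and after subtraction of that share. Testis markers (13 genes) summed to at most 2.64 CPM in any female library and to 1536 to 1953 CPM in males, and 11 accessory gland markers to at most 0.533 CPM in females and 3242 to 4707 CPM in males.

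Per kilobase of exon, the cytosolic Hsc70 *Hsc70-4* was the most abundant of the genes in all 4 groups, at 1955 ± 53.1 CPM per kb in control females and 949.9 ± 35.2 CPM per kb in control males (mean ± SD, n = 3). The next in control females was the cytosolic Hsp90 *Hsp83*, at 1408 ± 94.5 CPM per kb, ahead of *Hsp26* at 1005 ± 27.6 CPM per kb. In control males the next was *Calr*, the calcium-binding lectin chaperone of the endoplasmic reticulum, at 412.8 ± 20.3 CPM per kb, and *Hsp83* followed at 375.7 ± 26.1 CPM per kb, with overlapping ranges of mean ± SD. The lowest genes with any counts in control males were *Hsp67Bc*, at 1.73 ± 0.696 CPM per kb, and *Hsp67Ba*, at 2.53 ± 0.08 CPM per kb. All 40 genes together took 22560 ± 576 CPM in control females and 9975 ± 552 CPM in control males, of which *Hsc70-4* and *Hsp83* held 42.0% and 37.0%.

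**Figure D1:**
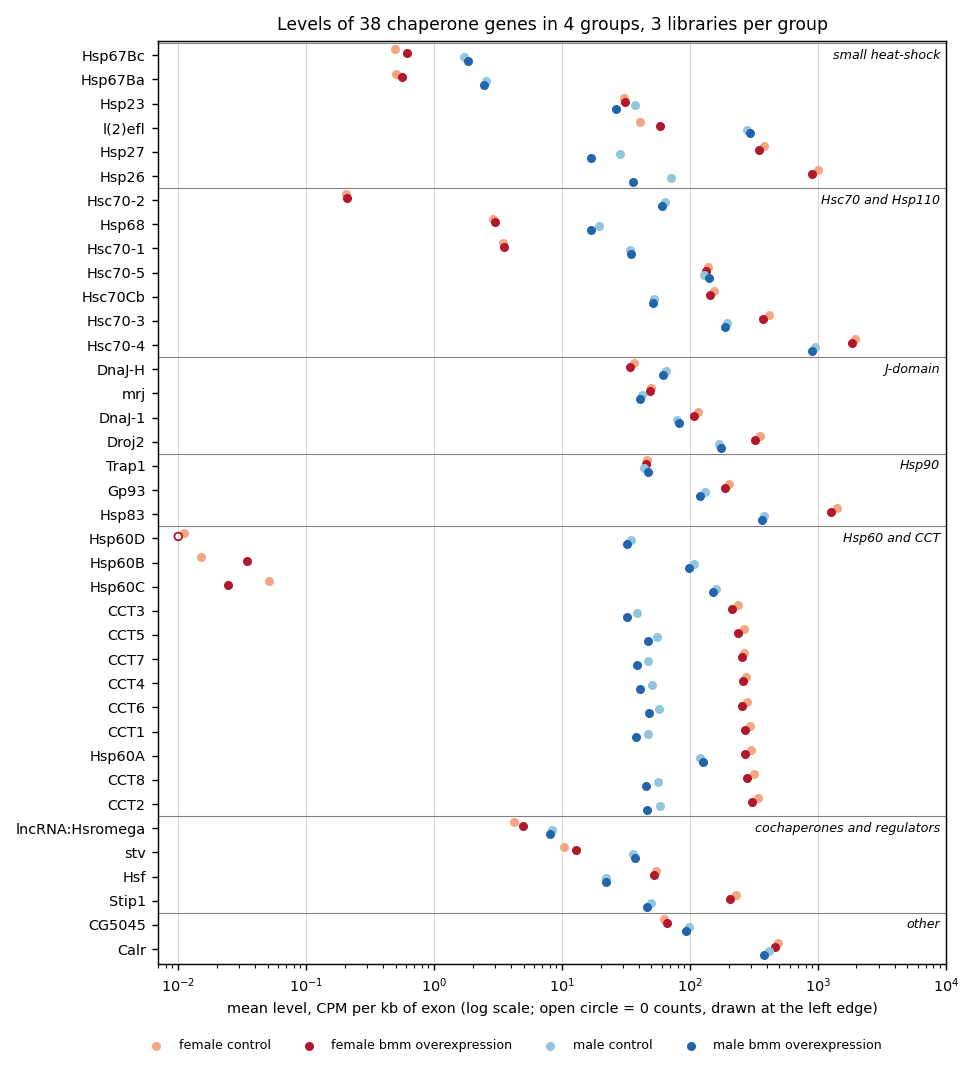
Mean level of 38 chaperone genes in CPM per kilobase of exon (log axis) in control and bmm overexpression females and males, 3 libraries per group, ordered by role. Hsc70-4 is highest in every group, at 1955 CPM per kb in control females; Hsp60B, Hsp60C, Hsp60D and Hsc70-2 are near 0 in females and between 34.7 and 159 CPM per kb in control males.

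*Hsp22*, a small heat-shock protein of the mitochondrial matrix, and *DnaJ-60*, a J-domain protein, had 0 counts in all 12 libraries. In the BDGP6.54 annotation, 100% of the exon bases of *Hsp22* also belong to exons of *CG4456* on the same strand, and 100% of those of *DnaJ-60* to *CG42568*. Of 306 protein-coding genes that lie wholly inside same-strand exons of another gene, 302 (98.7%) had 0 counts in every library, against 2 of 71 (2.82%) that lie wholly inside exons on the opposite strand only. The zeros of both genes therefore cannot be read as absence of transcript, and a level of neither can be given. *CG42568* was itself at 0, and *CG4456* was at 0 in females and between 0.137 and 0.804 CPM in males.

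Among the small heat-shock genes, 6 lie within 14.2 kb of chromosome arm 3L (9371511 to 9385694), the 67B cluster, in the order *Hsp67Bc*, *Hsp22*, *Hsp26*, *Hsp67Ba*, *Hsp23* and *Hsp27*. The seventh, *l(2)efl*, an alpha-crystallin relative, lies on arm 2R (23684651 to 23685543). *CG4456*, which overlaps *Hsp22*, is another name of *Hsp67Bb* of the 67B cluster and lies outside the rule by which the genes were chosen. Opposite-strand exons of other genes cover 75.9% of *Hsp67Ba*, 22.8% of *DnaJ-H* and 10.1% of *l(2)efl*, and less than 5% of each of the remaining protein-coding members with counts. Genes of that kind had counts, so the counting used strand.

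Overexpression of *bmm* in females changed none of the genes tested by as much as 2 times. The share of them called by the exact test was above that of all genes. The question was whether the chaperones outside the Hsp70 copies respond when *bmm* is raised. At an adjusted p under 0.05 (edgeR's exact test, Benjamini-Hochberg over all 10488 genes tested), 8 of the 35 genes tested had changed (22.9%), against 14.2% of all genes. Of these, 3 were higher, where 9.8% of all genes were, and 5 were lower, where 4.41% of all genes were. None passed an absolute log2 fold change of 1, which 1.41% of all genes did along with the adjusted p, and the largest of the 35 log2 fold changes was 0.51. The median log2 fold change over the 35 genes was -0.09, against -0.01 over all genes. With the replicate number as a block, since same-numbered female libraries deviated together, edgeR's quasi-likelihood test called 16 of 35, against 20.5% of all genes in that fit, 3 of them higher (11.5% of all genes were) and 13 lower (9.04% of all genes were). Without female control replicate 2 only 1 was called, and 3 without female *bmm* replicate 1, female *bmm* replicate 3 or female control replicate 1, 4 without female control replicate 3 and 7 without female *bmm* replicate 2. In whole-fly RNA, fewer cells of a type and less RNA per cell cannot be told apart.

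The largest rise was that of *l(2)efl*. Its level was 45.5, 42.8 and 41.2 CPM in the 3 *bmm* overexpression female libraries and 33.4, 27.8 and 29.3 CPM in the 3 control female libraries. All 3 libraries with the transgene lay above all 3 without it. Its log2 fold change of 0.51 ± 0.07 (SE, n = 3 against 3, edgeR's exact test, adjusted p = 4.8e-07) was a rise to 1.42 times the control level. It was called by every other test run and without any 1 female library. In males *l(2)efl* was 237, 198 and 219 CPM with *bmm* overexpression and 204, 214 and 199 CPM in controls. The male groups overlapped, and the log2 fold change in males was 0.12 with a 95% interval of -0.04 to 0.28 (adjusted p = 0.797).

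*stv*, or starvin, a BAG-domain protein that releases clients from Hsp70 and is needed in muscle, rose in females as well. It measured 44.5, 46.9 and 49.5 CPM with *bmm* overexpression and 37.6, 35.6 and 40.6 CPM in control females. No library of either group reached into the other. *stv* had a log2 fold change of 0.31 ± 0.07 (adjusted p = 0.003), and without female control replicate 2 it was 0.26 with an adjusted p of 0.0525. The third gene to rise, the heat-inducible nuclear noncoding RNA *lncRNA:Hsromega*, stood at 121, 99.0 and 101 CPM against 94.8, 85.0 and 90.3 CPM. Its lowest *bmm* overexpression library lay only just above its highest control. The log2 fold change of 0.24 ± 0.08 (adjusted p = 0.0423) was not called by the quasi-likelihood test without the block (adjusted p = 0.0665), without the filter on low counts (adjusted p = 0.0596), or without female *bmm* replicate 1, female control replicate 2 or female control replicate 3 (adjusted p = 0.171, 0.22 and 0.108).

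The 5 genes that fell in females did so by near-equal amounts, between 0.16 and 0.17 on the log2 scale. *Hsp60A*, the chaperonin of the mitochondrial matrix, was 676, 651 and 664 CPM with *bmm* overexpression and 766, 737 and 734 CPM in control females. *Stip1*, which links Hsp70 to Hsp90, was 386, 427 and 423 CPM against 478, 461 and 450 CPM. In both genes every *bmm* overexpression library lay below every control, and *bmm* replicate 1 was the lowest library for *Stip1*. The log2 fold change of *Hsp60A* was -0.17 ± 0.04 (adjusted p = 0.0143) and that of *Stip1* was -0.17 ± 0.05 (adjusted p = 0.0347). Of the 6 fits that each left out 1 female library, 2 called *Hsp60A* and 1 called *Stip1*, with an adjusted p of up to 0.12 and 0.239.

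The other 3 genes that fell were subunits of CCT. *CCT3* was 443, 474 and 466 CPM with *bmm* overexpression against 516, 517 and 520 CPM in control females. *CCT2* was 630, 665 and 641 CPM against 716, 727 and 713 CPM, and *CCT8* was 519, 539 and 539 CPM against 635, 585 and 572 CPM. The controls of *CCT3* were close together, and the groups overlapped for none of the 3 subunits. The 3 log2 fold changes were -0.17 ± 0.04 for *CCT3* (adjusted p = 0.0173), -0.16 ± 0.04 for *CCT2* (adjusted p = 0.0291) and -0.17 ± 0.05 for *CCT8* (adjusted p = 0.0326). Each of them failed in 5 of the 6 fits that left out 1 female library.

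Of the other genes tested in females none passed the exact test. Among the Hsp70 relatives, 0 of 7 changed by edgeR's exact test, with 1 at an unadjusted p under 0.05 and 1 called by DESeq2, which was *Hsc70-3*, the BiP of the endoplasmic reticulum, in both cases. Among the Hsp90 proteins the count was 0 of 3, with 1 at an unadjusted p under 0.05 and 1 by DESeq2, *Hsp83* in both. It was 0 of 4 among the J-domain genes, again with 1 at an unadjusted p under 0.05 and 1 by DESeq2, the DnaJA relative *Droj2*. The values of these genes were -0.15 for *Hsc70-3* (adjusted p = 0.0711), -0.16 for *Hsp83* (adjusted p = 0.0928) and -0.13 for *Droj2* (adjusted p = 0.0854). With the replicate block all 3 were called lower (adjusted p = 0.0344, 0.0385 and 0.0443), as were *CCT1*, *CCT5* and *CCT6*. *Hsp26* and *Hsp27* were called lower too in that fit, at log2 fold changes of -0.17 and -0.14 (adjusted p = 0.0392 and 0.0311). Over the whole list, the 3 libraries with *bmm* overexpression all lay below the 3 controls for 18 of 35 genes (51.4%), against 17.9% of all genes tested, and all lay above them for 3 (8.57%), against 18.3%. The 95% interval of the log2 fold change was within -0.5 to 0.5 for 31 of the 35, the others being *l(2)efl* and the sparse *Hsc70-2*, *Hsp67Ba* and *Hsp67Bc*.

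Markers of the ovarian germline moved with these falls. The summed level of 7 germline genes, *vas*, *nos* and *osk* among them, lay between 1460 and 1612 CPM in *bmm* overexpression females and between 1665 and 1823 CPM in control females, with no marker at 0. Egg-shell and yolk genes did not separate the groups, with sums of 61410 to 70830 CPM and 63150 to 72910 CPM. Eye markers (*ninaE* and *ninaC*) summed to 1642 to 1670 CPM with *bmm* overexpression and 1235 to 1474 CPM in control females, so that they too moved, upward, with the rises. Flight muscle markers did not separate the female groups, with sums of 210.5 to 255.1 CPM against 231.8 to 240.5 CPM in controls. Neither did fat body markers, with sums of 9.68 to 58.41 CPM against 15.77 to 123 CPM. The part of any of these lists in the changes of the chaperone genes was not tested.

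**Figure D2:**
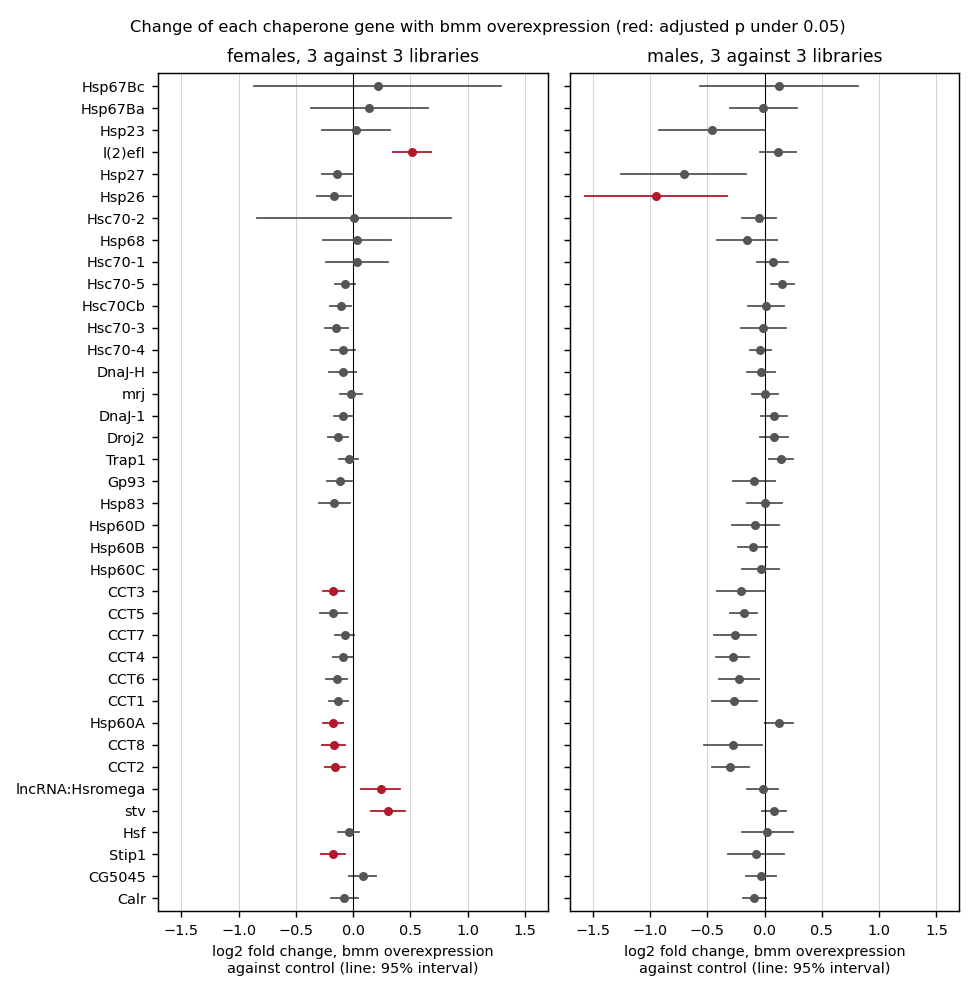
Log2 fold change of each gene with bmm overexpression against control in females (left, 35 genes) and males (right, 38 genes), 3 against 3 libraries; lines are 95% intervals from edgeR's quasi-likelihood fit and red marks an adjusted p under 0.05 by the exact test. In females l(2)efl is farthest to the right at 0.51 and most genes lie slightly left of 0; in males Hsp26 at -0.95 is the only gene marked.

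In males, *bmm* overexpression changed 1 of 38 genes tested (2.63%), against 4.31% of all 13632 genes tested. That gene, *Hsp26*, was lower, as were 2.38% of all genes. None passed both thresholds, as 1.5% of all genes did. The median log2 fold change was -0.04, against -0.01 over all genes. *Hsp26*, a cytosolic small heat-shock protein, was 39.7, 38.02 and 31.7 CPM in *bmm* overexpression males and 109, 61.4 and 46.1 CPM in control replicates 1, 2 and 3. The groups did not overlap, but the control values themselves differed by more than 2 times. Its log2 fold change was -0.95 ± 0.27 (adjusted p = 0.0196 by the exact test), and the call was not made by the quasi-likelihood test (adjusted p = 0.122) or DESeq2 (adjusted p = 0.131), nor without any single one of the *bmm* overexpression males (adjusted p of 0.0995 to 0.203).

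The order of *Hsp26* in the male controls was the order of their egg-gene RNA. The egg-gene share times the level of *Hsp26* in *bmm* overexpression females came to 51.1, 11.6 and 5.76 CPM in control replicates 1, 2 and 3, and to 1.82, 1.23 and 1.37 CPM in the *bmm* overexpression males. After its subtraction the log2 fold change of *Hsp26* was -0.51 (adjusted p = 0.0243), and without male control replicate 1 it was -0.54 (adjusted p = 0.0108), both smaller and both still called. *Hsp27*, the neighbouring gene for a nuclear small heat-shock protein, had the same shape, at 26.3, 29.5 and 26.8 CPM against 68.1, 36.5 and 33.5 CPM. All 3 *bmm* overexpression males lay below all 3 controls, and the log2 fold change of -0.70 ± 0.24 did not pass the test (adjusted p = 0.0806). Without male control replicate 1 it was -0.33 (adjusted p = 0.0505), and after the subtraction -0.27 (adjusted p = 0.291). *Hsp23* stood at 25.7, 22.2 and 22.0 CPM against 26.3, 45.3 and 27.0 CPM. Here control replicate 2, not replicate 1, was the high library, and the log2 fold change of -0.46 had a 95% interval of -0.92 to 0.00 (adjusted p = 0.292). *Hsp23* was called without male control replicate 1, at -0.61 (adjusted p = 0.0436), and not after the subtraction, at -0.47 (adjusted p = 0.274).

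Summed markers of other tissues also differed between the male groups. The summed level of 3 fat body genes (*Fbp1*, *Fbp2* and *Lsp2*) lay between 113.9 and 121.6 CPM in *bmm* overexpression males, with up to 1 of them at 0, and between 169.7 and 371.5 CPM in control males. That of 3 flight muscle genes (*Act88F*, *fln* and *Mhc*) lay between 885.2 and 943.4 CPM against 987.3 and 1061 CPM. Neither pair of sums overlapped between the groups. The medians of both lists lay far below the sums and did overlap, so neither sum speaks for most of its genes. For flight muscle the medians of replicates 1, 2 and 3 were 28.34, 22.42 and 29.97 CPM in *bmm* overexpression males. In control males they were 21.69, 25.3 and 21.92 CPM. For fat body they were 0.5871, 0.3722 and 0.2179 CPM against 0.4604, 0.2925 and 0.4097 CPM. The part of these tissues in the male differences was not tested.

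**Figure D3:**
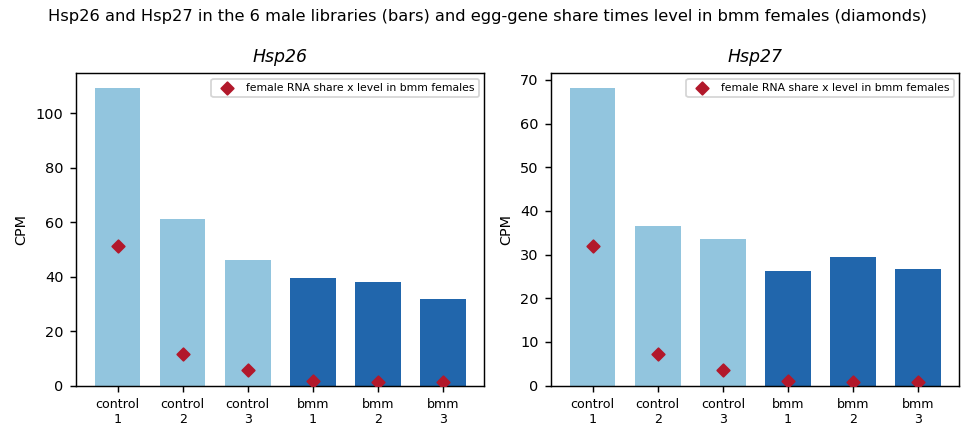
CPM of Hsp26 and Hsp27 in each of the 6 male libraries (bars), with the egg-gene share of that library times the level of the gene in bmm overexpression females (diamonds). Control replicate 1 has the tallest bars, 109 and 68.1 CPM, and the highest diamonds, 51.1 and 31.9 CPM.

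Outside the small heat-shock genes no member passed the test in males. All 3 *bmm* overexpression males lay below the controls for 14 of 38 genes (36.8%), against 14.5% of all genes tested, and above them for 3 (7.89%), against 8.69%. The 3 above, a share close to that of all genes, were *Hsp60A*, *Hsc70-5* and *Trap1*, with log2 fold changes of 0.12, 0.15 and 0.14 (adjusted p = 0.717, 0.496 and 0.542). The 95% interval was within -0.5 to 0.5 for 33 of 38 genes, and within -1 to 1 for all but *Hsp26* and *Hsp27*. Without male control replicate 3 the count of called genes rose to 6, all lower, with *Hsp27*, *CCT1*, *CCT2*, *CCT4* and *CCT7* added. It was 2 without male control replicate 1, with *Hsp23* added, and 2 without male control replicate 2, with *Hsp27* added.

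The subunits of CCT stood at similar levels. The ring holds 8 different subunits, each from its own gene, and per kilobase of exon their levels in control females ran from 239 CPM per kb for *CCT3* to 339 CPM per kb for *CCT2*, a ratio of 1.42. In control males they ran from 38.2 to 58.6 CPM per kb, a ratio of 1.53, with the same subunits at the ends. In each sex, for each of the 8 subunits, the 3 *bmm* overexpression libraries lay below the 3 controls, as they did for 17.9% of all genes in females and 14.5% in males. As a percent of the control mean, the median subunit was 87.7%, 92.8% and 92.2% in the 3 *bmm* overexpression females. It was 80.1%, 84.6% and 79.3% in the 3 *bmm* overexpression males. The control males themselves ran from 88.6% in replicate 3 to 112% in replicate 1, so that male control replicate 3 stood nearer to the *bmm* overexpression males than to control replicate 1.

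The median log2 fold change of the 8 subunits was -0.15 in females, with 3 called (14.2% of all genes were), and -0.26 in males, with 0 called by the exact test, 7 at an unadjusted p under 0.05 and 2 called by DESeq2 (4.31% of all genes were called by the exact test). The share of all genes at that unadjusted p or by DESeq2 was not worked out. With the replicate block 6 were called in females, where 20.5% of all genes were. None was called in females without *bmm* replicate 1, *bmm* replicate 3, control replicate 1 or control replicate 2. The male median was -0.11 after subtraction of the egg-gene share and -0.18 without male control replicate 1, and 4 subunits were called without male control replicate 3. Levels in the male controls followed the order of the egg-gene share for every subunit except *CCT5*. The part of that RNA in the male difference was tested only by the subtraction and by leaving out control replicate 1. The subunits of 1 ring share their libraries and are not independent of each other.

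**Figure D4:**
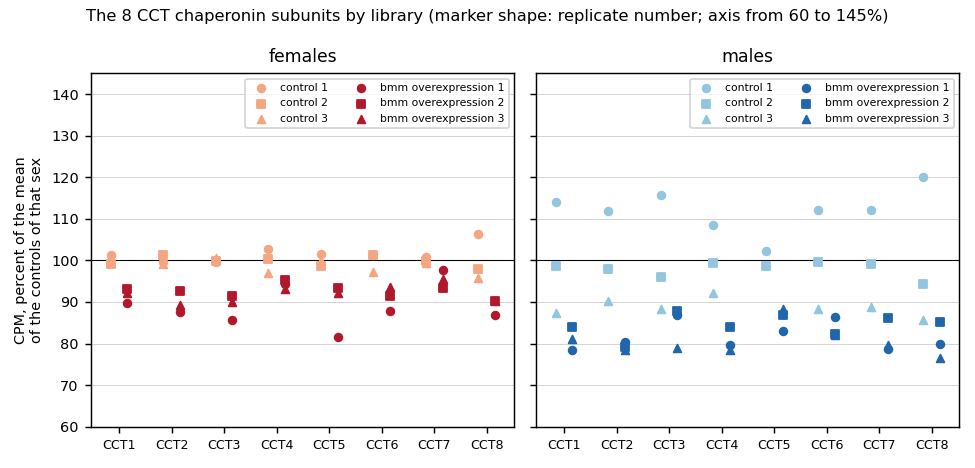
CPM of each of the 8 CCT subunits in each library as a percent of the mean of the controls of that sex (the axis does not start at 0; marker shape gives the replicate). The bmm overexpression libraries lie below the controls for every subunit in both sexes, and in males the controls spread from a median of 88.6% to 112%.

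Mitochondrial folding was looked at gene by gene in *Trap1*, *CG5045* and *Hsp60A*. *Trap1* was 112.4, 112.4 and 111.8 CPM with *bmm* overexpression and 115.2, 112.9 and 116.0 CPM in control females. The male libraries gave 117, 114 and 117 CPM against 110, 108 and 105 CPM. The female libraries lay just below and the male libraries just above their controls, and neither difference passed the test. The fold change on the log2 scale was -0.04 in females, with a 95% interval of -0.12 to 0.05 (adjusted p = 0.704), and 0.14 in males, with an interval of 0.04 to 0.24 (adjusted p = 0.542).

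*CG5045* was 79.5, 74.1 and 80.7 CPM against 72.5, 71.0 and 76.8 CPM in females and 110.1, 103.3 and 115.4 CPM against 116, 114 and 114 CPM in males. The groups overlapped in both sexes. Its log2 fold change was 0.08 in females (95% interval -0.04 to 0.20, adjusted p = 0.455) and -0.03 in males (-0.16 to 0.10, adjusted p = 0.984). *Hsp60A* in males was 336, 306 and 300 CPM with *bmm* overexpression and 292, 298 and 292 CPM in controls. Those groups did not overlap, with replicate 1 highest, and the log2 fold change of 0.12 had a 95% interval of 0.00 to 0.25. For *Hsp60A*, *Trap1* and *CG5045*, a change of 1.5 times in either direction thus lay outside the interval in both sexes.

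**Figure D5:**
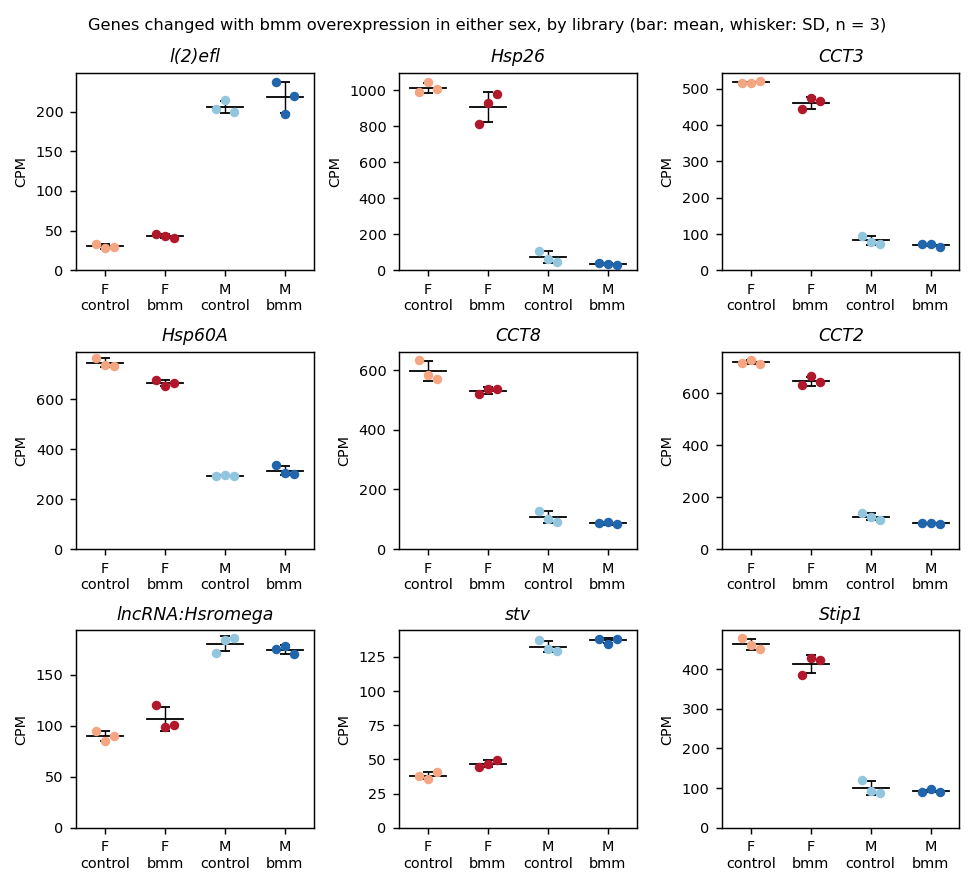
CPM in every library of the 9 genes past an adjusted p of 0.05 for bmm overexpression against control in either sex (F, females; M, males; bars, means; whiskers, SD; n = 3). Sex separates the libraries of each gene more widely than genotype does, as for l(2)efl at 27.8 to 45.5 CPM in females and 198 to 237 CPM in males.

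Whether genotype acted differently in the sexes was tested by an interaction term over all 12 libraries. No member passed at an adjusted p under 0.05 by edgeR's quasi-likelihood test, against 2.91% of all 13988 genes tested. At an unadjusted p under 0.05 were 11 of the 38, and DESeq2 called 6, counts whose share over all genes was not worked out. The values nearest to the threshold were those of *l(2)efl*, which rose in females and whose interaction was -0.43 ± 0.11, and *Hsp60A*, which fell in females and whose interaction was 0.26 ± 0.07, both with an adjusted p of 0.0648. After subtraction of the egg-gene share from the male libraries, these were the 2 genes called. The changes of both genes in females are thus not shown to differ from those in males by the test used here. For *Hsp26* the interaction was -0.83 ± 0.32 (adjusted p = 0.226), and the median over the 8 CCT subunits was -0.16, or 0.00 after subtraction.

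The sexes differed far more than the genotypes. In control males against control females, 34 of 38 genes had changed (89.5%), against 91.7% of all 13602 genes tested, so that a difference as such did not set these genes apart. Of the 34, 13 were higher in males (52.8% of all genes were) and 21 lower (38.9% of all genes were). Past a log2 fold change of 1 were 29 of the 38, where 68.5% of all genes were: 11 higher, against 44.4% of all genes, and 18 lower, against 24%. The median log2 fold change of the 38 was -0.57, against 0.49 over all genes. Without TMM scaling the median of all genes moved up by 0.25, and *Calr*, *Hsc70-5*, *Trap1* and *mrj* changed sign. With TMM scaling all 4 lay lower in males, and they are counted so here, *mrj* among the 21 called, but that direction depends on the scaling. Their log2 fold changes lay between -0.22 and -0.08. The libraries of the sexes did not overlap for 13 genes that were higher in males and 24 that were lower, against 53.2% and 40.1% of all genes.

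The 2 largest falls in males were those of *Hsp26* and *Hsp27*. In the control females *Hsp26* was 990, 1045 and 1010 CPM, against the 46.1 to 109 CPM of control males, a log2 fold change of -3.81 ± 0.29 (adjusted p = 1.2e-32). *Hsp27* was 591, 632 and 647 CPM in control females, a log2 fold change of -3.76 ± 0.26 (adjusted p = 4.9e-39). For *Hsp26*, whose male level followed the egg-gene share, the value was -4.21 without male control replicate 1, and for *Hsp27* it was -4.13. Within the same 14.2 kb, *Hsp67Ba* and *Hsp67Bc* were higher in males, at 4.27 to 4.53 CPM against 0.855 to 0.900 CPM and at 1.20 to 2.49 CPM against 0.274 to 0.633 CPM. *Hsp23* overlapped between the sexes. It was not called by the exact test (adjusted p = 0.207), was called higher in males by DESeq2, with library size alone and without male control replicate 1, and was -0.02 on the log2 scale without male control replicate 2. The cluster thus held both genes lower and genes higher in males.

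*l(2)efl* was the most abundant of the listed small heat-shock genes in control males, at 277.3 ± 10.5 CPM per kb. Its log2 fold change in control males was 2.78 ± 0.09 (adjusted p = 6.2e-118). Of the summed level of the 6 small heat-shock genes with counts, per kilobase, *Hsp26* held 68.9% ± 0.604 in control females and 16.7% ± 6.03 in control males (SD, n = 3). *l(2)efl* held 2.79% ± 0.338 and 66.7% ± 6.45. The most abundant transcript of these 6 genes therefore differed between the sexes. The same flight muscle markers summed to 231.8 to 240.5 CPM in control females and 987.3 to 1061 CPM in control males. Their medians were far lower, at 3.597 to 4.5 CPM and 21.69 to 25.3 CPM. Eye markers were higher in control males too, with sums of 6335 to 6811 CPM against 1235 to 1474 CPM in control females. The part of either list in the level of *l(2)efl* was not tested.

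Each CCT subunit was lower in males. The 8 log2 fold changes ran from -2.64 to -2.26 with a median of -2.48, and 8 of 8 were called under every setting run. By the exact test 91.7% of all genes were called, and 38.9% were called lower. The subunits with the largest falls were *CCT3* (-2.64 ± 0.09), *CCT1* (-2.63 ± 0.09), *CCT2* (-2.52 ± 0.07) and *CCT7* (-2.49 ± 0.08). *CCT1* was 588, 574 and 577 CPM in control females and 106, 91.7 and 81.2 CPM in control males. *CCT7* was 525, 520 and 518 CPM and 103, 91.5 and 82.0 CPM. The female libraries were close together and far above the male ones. All 6 subunits of prefoldin, which brings actin and tubulin to CCT, were also lower in control males, as were 38.9% of all genes. Their median log2 fold change was -1.42.

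The Hsp60 family was split by sex. *Hsp60A* took 99.97% of the summed level of the 4 genes per kilobase in control females and 28.3% ± 0.891 in control males. The rest in control males was *Hsp60C* with 37.9% ± 0.557, *Hsp60B* with 25.6% ± 0.426 and *Hsp60D* with 8.25% ± 0.502. *Hsp60B* and *Hsp60C* are known for roles in the male germline, where *Hsp60B* is needed for sperm individualization. *Hsp60C* was 330, 366 and 337 CPM in control males and *Hsp60B* was 235, 249 and 228 CPM. *Hsp60D* was 62.9, 76.2 and 65.1 CPM. Over the 3 control female libraries *Hsp60C*, *Hsp60B* and *Hsp60D* had 10, 3 and 2 counts in all, with at most 5 in any library.

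From those counts the level of *Hsp60C* was 3071 times higher in control males than in control females, with a 95% counting interval of 1670 to 6404. For *Hsp60B* the ratio was 7071 (2419 to 34290) and for *Hsp60D* it was 3023 (836.5 to 24970), intervals that cover counting error only. In *bmm* overexpression flies *Hsp60D* had 0 counts in all 3 female libraries and was at least 528-fold higher in males, taking 3 counts per female library. *Hsp60A* itself was lower in control males by -1.33 ± 0.05 on the log2 scale (adjusted p = 7.3e-33). Testis markers split the sexes likewise, at 2.64 CPM in female *bmm* replicate 2 and 0.0541 to 0.343 CPM in the other female libraries. In female *bmm* replicates 1, 2 and 3 *Hsp60C* had 0, 5 and 0 counts and *Hsp60B* had 3, 2 and 0. The part of testis RNA in these counts and ratios was not tested.

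A similar division was seen among the Hsp70 relatives. *Hsc70-2* was 137, 146 and 135 CPM in control males and 0.624, 0.308 and 0.4 CPM in control females, a ratio of 311 (228 to 436). *Hsc70-1* was 94.8, 95.4 and 86.0 CPM against 9.89, 9.49 and 8.87 CPM, a log2 fold change of 3.30 ± 0.07 (adjusted p = 2.9e-212). *Hsp68*, the inducible relative that lies outside the Hsp70 copies, was 39.0, 51.3 and 39.2 CPM against 7.69, 5.75 and 6 CPM. All male libraries lay above all female libraries for the 3 genes. In *bmm* overexpression against control none of them changed in either sex, with log2 fold changes of 0.01, 0.03 and 0.03 in females and -0.05, 0.07 and -0.16 in males. The abundant relatives went the other way, *Hsc70-4* by -1.03 ± 0.05 (adjusted p = 7.2e-16) and *Hsc70-3* by -1.08 ± 0.08 (adjusted p = 1.2e-15), and *Hsc70Cb*, their Hsp110 exchange factor, by -1.56 ± 0.07 (adjusted p = 1e-38).

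Among the Hsp90 proteins the cytosolic *Hsp83* was lower in control males by -1.90 ± 0.07 (adjusted p = 3e-42) and *Gp93* of the endoplasmic reticulum by -0.62 ± 0.07 (adjusted p = 6.2e-07). *Hsp83* took 85.0% ± 0.794 of the summed level of the 3 genes per kilobase in control females and 68.4% ± 0.528 in control males. Its cochaperone *Stip1* was lower by -2.20 ± 0.11 (adjusted p = 3.7e-48). The heat-shock factor *Hsf* was lower as well, at 75.7, 56.7 and 60.6 CPM in control males and 160, 155 and 154 CPM in control females. Its groups were far apart in each genotype. Higher in males were *stv*, by 1.82 ± 0.06 (adjusted p = 1e-83), *lncRNA:Hsromega*, by 1.02 ± 0.07 (adjusted p = 2.2e-20), *DnaJ-H*, by 0.84 ± 0.07 (adjusted p = 3.2e-16), and *CG5045*, by 0.65 ± 0.05 (adjusted p = 5.4e-14). *l(2)efl*, *stv* and *lncRNA:Hsromega*, the 3 genes that rose in *bmm* overexpression females, and *Hsp60A*, *Stip1*, *CCT2*, *CCT3* and *CCT8*, which fell there, were tested against the same control females in both comparisons, so their values are given side by side and not correlated.

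In *bmm* overexpression flies the sexes differed in 35 of 38 genes (92.1%), against 91.7% of all 13535 genes tested, 13 higher in males (52.5% of all genes were) and 22 lower (39.3% of all genes were). Past both thresholds were 25, against 66.1% of all genes, 10 of them higher, against 43.1%, and 15 lower, against 23%. The libraries did not overlap for 15 genes higher in males and 22 lower, against 51.7% and 41.1% of all genes. *Hsp26* was lower in males by -4.57 ± 0.11 and *Hsp27* by -4.29 ± 0.09 (adjusted p = 1.2e-11 and 3.2e-12 by the quasi-likelihood test). The CCT median was -2.62. *Hsp60A* took 31.0% ± 1.09 of the Hsp60 sum in *bmm* overexpression males. *Hsp23* and *mrj* changed sign without TMM scaling, which moved the median of all genes by 0.19. *mrj* is counted as lower above, a direction that depends on the scaling.

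Related genes outside the list were counted for comparison, against 14.2% of all genes called in females and 4.31% in males. In females 0 of 12 genes for folding in the endoplasmic reticulum changed (edgeR's exact test, 3 at an unadjusted p under 0.05, 0 by DESeq2), 0 of 7 for mitochondrial folding and proteolysis (3 and 0), 0 of 14 Hsp70 and Hsp90 cochaperones (2 and 0) and 0 of 4 other alpha-crystallin genes (1 and 0). With the replicate block 1 of the mitochondrial genes and 2 of the cochaperones were called. The exception was prefoldin, where *mgr* fell by 0.19 on the log2 scale (adjusted p = 0.0318) and the other 5 did not change. In males 0 of 12, 0 of 7, 0 of 6 prefoldin genes and 0 of 16 cochaperones changed (0, 0, 1 and 1 at an unadjusted p under 0.05, 0 each by DESeq2). The alpha-crystallin gene *CG4461* rose in males with a log2 fold change of 0.34 ± 0.07 (adjusted p = 0.0205), 1 of 4 in its list. In control males against control females, 4 of 4 alpha-crystallin genes were higher, with a median of 1.66, as was *l(2)efl*, and of the endoplasmic reticulum genes 2 were higher and 7 lower, with a median of -0.27, where 52.8% of all genes were higher and 38.9% lower.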

How the data were processed

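Total RNA of 3 replicates per group was made into stranded mRNA libraries. The authors aligned trimmed reads to BDGP6.28 with HISAT2, marked duplicates, removed alignments under a mapping quality of 60, and counted reads per gene with featureCounts. Tool versions and the strand setting are not given in the sources used here. The deposited values used are raw whole-number counts per gene symbol. A deposited table of CPM, the same counts over 1 factor per library for part of the symbols, was not used. The members and lists were chosen with earlier results of these data known.

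Counts were filtered with filterByExpr and scaled by TMM in edgeR 4.0.16 (R 4.3.3). Groups were compared by the exact test, as the methods of the study state, and the interaction by the quasi-likelihood test over 12 libraries, both with Benjamini-Hochberg adjustment over all genes tested. Changed means an adjusted p under 0.05. Standard errors and 95% intervals came from the quasi-likelihood fit. For *Hsp26* and *Hsp27* between the sexes with *bmm* overexpression the quasi-likelihood adjusted p is given. The exact p of *Hsp27* there was too small for the computer. Levels are CPM with TMM factors over 12 libraries; per kilobase they use exon bases not shared with a gene on the same strand in BDGP6.54. P-values measure the spread between the 3 biological replicates of a group, whose separate rearing the labels do not describe. Replicates of a group differed by more than sampling noise in every pair.

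Values by library are given for members with an adjusted p under 0.05 for *bmm* overexpression in either sex, the 6 largest positive and 6 largest negative changes between control males and control females, members called for the interaction, and *Hsp60A*, *Hsp22*, *Trap1* and *CG5045* for mitochondrial folding. Values of other genes, such as *Hsp23*, *Hsp27* in males, *Hsp68*, *Hsf* and *Hsp67Ba*, were added after they were seen. Female libraries with the same replicate number deviated together (r = 0.22, 0.144 and 0.304), though the labels do not say that the numbers pair them. The exact test leaves such a pairing out, and only the replicate block takes it in. Alternatives were the quasi-likelihood test, DESeq2 1.42.0, library size alone, no filter, the replicate block, each library left out, both thresholds, and a subtraction. The subtraction took from each male library its egg-gene share times the level of the gene in *bmm* overexpression females. Where that RNA came from was not tested. On simulated counts with known changes the tests found nearly all changed genes, and the exact test made more false calls than its threshold allows. Those changes were planted only in well-counted genes and were larger than any change of a member with *bmm* overexpression. How well the tests find changes as small as those of the members was therefore not shown. Promoter and protein sequences were not analysed here.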

Additional observations from a re-analysis of the deposited data

How the results depend on the processing

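In females the count of changed genes, 8 of 35, was 14 by DESeq2, 5 with library size alone, 16 by the quasi-likelihood test with the replicate block, and 0 past both thresholds. Leaving out 1 library gave 1 to 7, and *l(2)efl* was the gene called in each of those fits. The quasi-likelihood test without the block and the analysis without the filter gave 9 and 7. In males the count of 1 was 0 by the quasi-likelihood test with or without the replicate block, 2 by DESeq2 (*CCT2* and *CCT4*, not *Hsp26*), 2 with library size alone, 0 past both thresholds and 0 to 6 without 1 library. For the interaction the count of 0 was 6 by DESeq2, 2 after subtraction of the egg-gene share and 0 to 1 without 1 library. The cause of these differences was not tested, beyond the smaller number of samples in fits without 1 library. Among these alternatives the share of all genes called was worked out only for the replicate block in females and for both thresholds in each sex. It was not worked out for counts at an unadjusted p either.

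Between the sexes the counts kept within 1.5 times, 33 to 36 of 38 in controls and 34 to 37 of 38 with *bmm* overexpression, past both thresholds 29 and 25. The replicate numbers did not pair the male libraries (r of -0.032, 0.082 and -0.035) nor those of the 2 sexes, and the block changed no sex count by over 1.5 times. Of 302 values for 26 named log2 fold changes, 262 kept their direction and side of the threshold, 39 lost the call, and 1 changed sign. The value that changed sign was *CG5045* in males, which ran from -0.073 (without male *bmm* replicate 3) to 0.0059 (without male *bmm* replicate 2). These values include the largest sex differences, chosen for their size, and genes with no call to lose. All 39 lost calls were of genes called for *bmm* overexpression, where only *l(2)efl* kept its call in every value counted. The pooled count therefore does not show how steady the *bmm* calls were. *Hsp60B*, *Hsp60C* and *Hsp60D* had too few counts in females for a test of genotype there.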

Other observations

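*CG11267*, which RefSeq gives as a synonym of Hsp10, the partner of Hsp60 in the mitochondrial matrix, is outside the rule by which the genes were chosen. It was 284, 264 and 273 CPM in *bmm* overexpression females and 310, 285 and 298 CPM in control females. The log2 fold change of -0.13 ± 0.04 did not pass the test (edgeR's exact test, adjusted p = 0.127). In males the log2 fold change was -0.08 ± 0.06 (adjusted p = 0.888). In control males against control females it was -2.26 ± 0.07 (adjusted p = 1.4e-93), and for *Hsp60A* that value was -1.33.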
